A study of Danio rerio with 6 samples.

Results

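Heat shock proteins and chaperones were followed in regenerating zebrafish caudal fins after short inhibition of Smoothened, the membrane protein that passes on the Hedgehog signal. The genes were taken by symbol: names that begin with hsp and a digit or 1 of the letters a, b, d and e (heat shock proteins and a few partners such as hspbp1 and hspbap1), dnaj (J-domain co-chaperones), cct (subunits of the chaperonin TRiC) or pdia (disulfide isomerases), together with tcp1, calr, canx and serpinh1b. The perlecan gene hspg2, which is no chaperone gene, was left out. The rule itself uses symbols and no measured value. It found 98 of the 31901 rows of the count table, and no other row carried any of these 98 names. By symbol patterns set from the known place of their proteins, 26 belong to the endoplasmic reticulum and 12 to mitochondria, and 12 act elsewhere or are unclear. The remaining 48 matched no such pattern and were counted with the cytosol and nucleus.

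BMS-treated fish carried shha:GFP and received 40 mg/kg of the Smoothened inhibitor BMS-833923 by intraperitoneal injection in a buffer of 50% PEG-400, 5% propylene glycol and 0.5% Tween-80. Vehicle fish also carried shha:GFP and received the buffer alone. In both groups the caudal fin was collected at 4 days after amputation and 5 hours after injection, and the part kept began at the shha:GFP domains and ran to the distal edge. Each group has 3 libraries, numbered 2, 3 and 4, and each library is a pool of 4 regenerates, so the spread is between pools and not between single fish. The treatment labels of BMS 3 and BMS 4 end in another digit than that of BMS 2 and of the protocol, and the 3 libraries were taken as 1 treatment. The age of the fish is not stated. The single comparison, BMS against vehicle, was made by the study to find transcripts downstream of Sonic hedgehog, and here it is read for the protein folding machinery.

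Chaperones bind unfolded protein and let it fold, refold or be destroyed. In the cytosol, Hsp70 proteins take up extended chains that J-domain proteins deliver, Hsp90 completes the folding of kinases and receptors, and TRiC folds actin and tubulin inside a closed ring. In the endoplasmic reticulum, an Hsp70 (hspa5, BiP), an Hsp90 (hsp90b1, Grp94), lectins and disulfide isomerases fold secreted protein, which in a growing fin includes much collagen. Heat shock factor raises the inducible cytosolic genes, and the unfolded protein response raises those of the endoplasmic reticulum.

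Total counts ran from 16978747 to 22659275 in BMS libraries and from 21491345 to 22594355 in vehicle libraries, so 3 reads equal 0.132 to 0.177 CPM of the total count (CPM being the count per library on a common scale of depth). Counts were scaled by edgeR's trimmed mean of M values (TMM). The factor was 0.779 for BMS 2 and at least 0.954 for the other libraries, and rows of ribosomal proteins took 8.86% of the counts of BMS 2 against 3.95% to 6.57% in the others. Libraries of the same number deviated from their group means together, so the number was also used as a block and the ratio within each number is called a pair. Fin markers were present: krt5, a basal keratin, lay between 12282 and 25161 CPM in BMS libraries and between 14385 and 20556 CPM in vehicle libraries. In bulk tissue, fewer cells of a type and less RNA per cell cannot be told apart. The Hedgehog targets ptch1, gli1 and hhip were each lower in BMS in 3 of 3 pairs (log2 fold changes of -0.82, -0.90 and -1.88).

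No chaperone gene passed the test in either direction. Of the 98 rows, 86 had enough counts to be tested among 18541 rows, and edgeR's quasi-likelihood test called 0 of the 86 at an adjusted p under 0.05 (percent called over all rows: 0). In that fit the smallest adjusted p over all 18541 rows was 0.999997, so the Hedgehog targets were not called either. An unadjusted p under 0.05 was reached by 0 of the 86, beside 198 of all rows tested (1.07%). With the replicate number as a block, edgeR again called 0 of 86, and the smallest adjusted p of the 86 was 0.687. That fit also called 0 of all 18541 rows, with a smallest edgeR adjusted p of 0.316. DESeq2 called 0 of 86 with the block and 0 without it, and 4 of the 86 had no adjusted p with the block. Over all rows, DESeq2 with the block called 0.388%.

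The intervals say how large a change these libraries leave room for, and they depend on whether the replicate number is used as a block. In the edgeR fit with the block, the 95% interval of the fold change lay within 1.5-fold in both directions for 43 of the 86 genes and within 2-fold for 79 of 86. Of the 56 genes with a mean of at least 10 CPM, 40 lay within 1.5-fold and 56 within 2-fold. In that fit, the 7 genes whose interval went past 2-fold were dnajb5, hspb1, hspb8, dnajb9a, dnajc19, dnajc27 and dnajc6. These counts hold only for the fit with the block, and the labels state no pairing. In the fit on group alone the intervals of hspa5 (-0.98 to 1.57) and hsp90aa1.2 (-0.58 to 1.33) were wider and went past 2-fold. They were not alone among the genes with a mean of at least 10 CPM. Intervals past 2-fold in that fit were also those of hsp90ab1, canx, dnajc8, pdia3, hspe1, dnajc3a, dnajc2, cct4 and dnajc25. Below that mean, hsp70.1, hsp70.2, hsp70.3 and hsp70l were among those that went past 2-fold there.

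**Figure D1:**
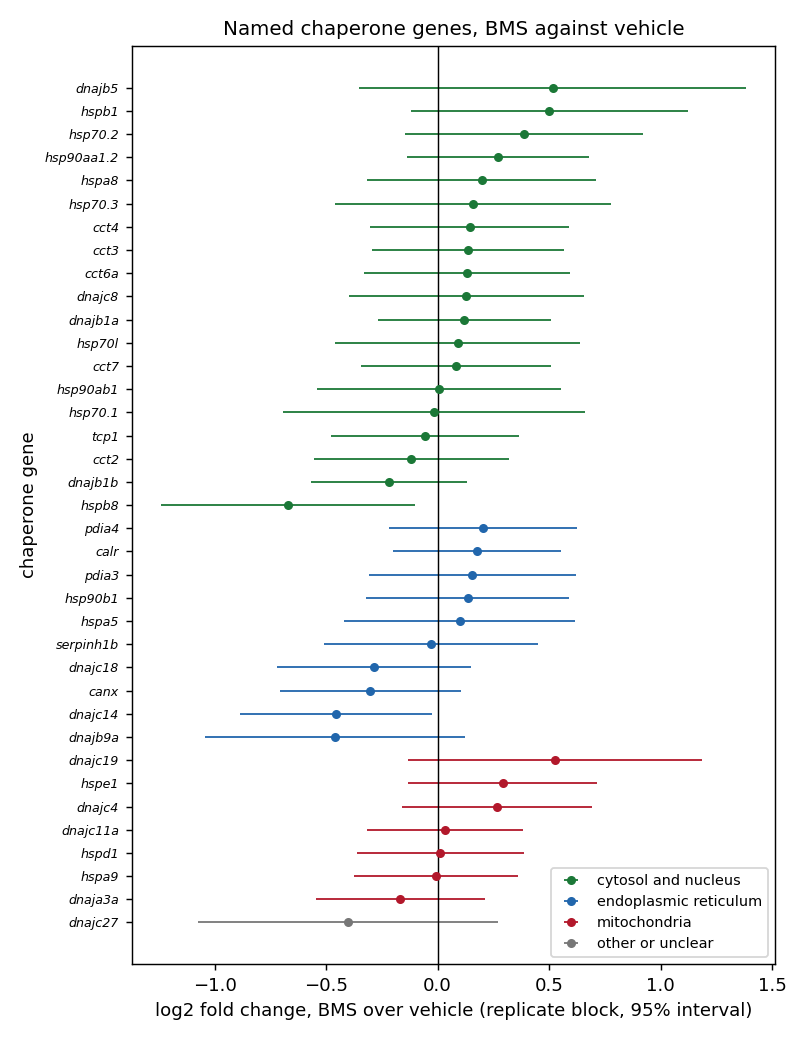
Log2 fold change of BMS over vehicle (x axis) with its 95% interval in edgeR with the number as a block, for the 37 named chaperone genes that were tested (y axis), coloured by compartment. All points but those of hspb8 and dnajc14 have intervals that include 0, and neither of these 2 genes passed after adjustment over all rows.

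The cytosolic Hsp70 genes are led by hspa8, the constitutive Hsc70 that works in every cell. It had 7546, 4363 and 5148 CPM in BMS libraries 2, 3 and 4, against 5270, 4186 and 5085 CPM in vehicle libraries 2, 3 and 4. BMS 2 stood above the other 5 libraries, which lay close together. The log2 fold change was 0.23 ± 0.34 (SE) without the block and 0.20 (95% interval -0.31 to 0.71) with it. Leaving out 1 library moved the value between -0.01 and 0.39.

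The inducible Hsp70 genes, which heat and other protein damage switch on, were low and followed the replicate number. The rows hsp70.1, hsp70.2, hsp70.3 and hsp70l encode closely related proteins, and hsp70.1, hsp70.2 and hsp70.3 lie next to one another in the RefSeq gene table, so reads may be divided among them and single values are uncertain. Summed, these 4 rows had 33.5, 12 and 6.55 CPM in BMS libraries 2, 3 and 4, against 23.9, 10.8 and 7.14 CPM in vehicle libraries 2, 3 and 4. The number 2 libraries were the highest and the number 4 libraries the lowest in both groups, and the groups overlapped widely. Within pairs 2, 3 and 4 the log2 ratio of the sum was 0.49, 0.14 and -0.13. By row, the log2 fold change with the block was -0.02 for hsp70.1, 0.39 for hsp70.2, 0.16 for hsp70.3 and 0.09 for hsp70l, and all 4 intervals included 0. Of these rows, hsp70.2 was higher in BMS in 3 of 3 pairs, with 8.33, 3.38 and 1.90 CPM in BMS libraries and 5.61, 3.08 and 1.39 CPM in vehicle libraries of numbers 2, 3 and 4.

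The cytosolic Hsp90 gene hsp90ab1 encodes the constitutive form. It had 5319, 2771 and 1717 CPM in BMS libraries 2, 3 and 4, against 3771, 2996 and 2205 CPM in vehicle libraries 2, 3 and 4. Number 2 was the highest and number 4 the lowest in both groups, and the BMS libraries were more widely spread (3269 ± 1852 CPM, SD, n = 3) than the vehicle libraries (2991 ± 783 CPM, SD, n = 3). With the block, the log2 fold change was 0.01 (interval -0.54 to 0.55). The stress-inducible hsp90aa1.2 had 217, 94.0 and 76.3 CPM in BMS libraries, against 135, 92.7 and 70.7 CPM in vehicle libraries of the same numbers. It was higher in BMS in 3 of 3 pairs, with pair log2 ratios of 0.68, 0.02 and 0.11, and its interval with the block ran from -0.14 to 0.68. Its neighbour hsp90aa1.1, known in zebrafish as the form of striated muscle, was at 0.121 to 0.227 CPM in BMS libraries and 0.0844 to 0.198 CPM in vehicle libraries, which is near the value of 3 reads. It was not tested, and only 8 of 26 muscle marker genes had enough counts to be tested.

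The chaperonin TRiC is built from 8 kinds of subunit, and 8 of the chosen rows encode them: tcp1, cct2 to cct5, cct6a, cct7 and cct8. Their summed level was 3363, 1688 and 1977 CPM in BMS libraries 2, 3 and 4, against 2399, 1873 and 2084 CPM in vehicle libraries 2, 3 and 4. BMS 2 was the highest library and BMS 3 the lowest, so the vehicle libraries lay inside the range of the BMS libraries. The subunits kept together: within pair 2 all 8 were higher in BMS, within pair 3 all 8 were lower, and within pair 4 there was 1 higher and 7 lower. The medians of the 8 log2 ratios were 0.50, -0.17 and -0.10 in pairs 2, 3 and 4, beside medians of 0.00, -0.01 and -0.06 over all rows tested. With counts scaled by the total count alone, the medians were 0.20, -0.20 and -0.13 with the same 8, 0 and 1 subunits higher, beside -0.27, -0.04 and -0.09 over all rows.

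In each of the 8 rows BMS 2 was the highest library. The most counted, cct6a, had 699, 322 and 410 CPM in BMS libraries, against 470, 349 and 428 CPM in vehicle libraries of numbers 2, 3 and 4. For cct7, cct3 and cct4 the log2 fold change with the block was 0.08, 0.14 and 0.14, and the lowest and highest bounds of the 3 intervals were -0.34 and 0.59. The subunit gene tcp1 had 350, 162 and 134 CPM in BMS libraries, against 275, 193 and 161 CPM in vehicle libraries. A second row for the beta subunit, named CCT2 in capitals, falls outside the choice by symbol and is not part of the summed level above. It had 325, 113 and 89.0 CPM in BMS libraries, against 207, 134 and 109 CPM in vehicle libraries of the same numbers, in the same order of libraries as cct2 (45.3, 23.9 and 15.1 CPM in BMS, 36.0, 29.0 and 20.1 CPM in vehicle).

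J-domain proteins set off the ATPase of Hsp70 and choose its work. Of the 51 dnaj rows, 48 were tested and edgeR called 0, beside 0 of all 18541 rows. The median log2 fold change was 0.03 with values between -0.44 and 0.65, beside a median of 0.01 over all rows. The paralogues dnajb1a and dnajb1b encode the main heat-inducible J-domain proteins, and the difference between them was not tested. For dnajb1b the levels were 25.8, 28.6 and 30.7 CPM in BMS libraries 2, 3 and 4, against 30.1, 33.8 and 35 CPM in vehicle libraries 2, 3 and 4. The pair log2 ratios of -0.22, -0.24 and -0.19 were all negative and close to one another, yet the groups overlapped and the interval with the block ran from -0.57 to 0.13. For dnajb1a the levels were 22.3, 21.0 and 22.3 CPM in BMS libraries, against 18.2, 22.2 and 20.1 CPM in vehicle libraries, with an interval of -0.27 to 0.51. The low gene dnajb5 had 0.908, 1.81 and 0.808 CPM in BMS libraries, against 0.634, 0.844 and 0.873 CPM in vehicle libraries, and its interval reached the highest bound of the 86 genes (1.38). The spliceosome-linked dnajc8 had 58.4, 19.2 and 21.7 CPM in BMS libraries, against 35.6, 27.1 and 19.4 CPM in vehicle libraries, with pair log2 ratios of both signs.

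Small heat shock proteins hold unfolded chains until Hsp70 takes them over. Of their 9 rows only hspb1, hspb7 and hspb8 were tested, and hspb2, hspb3, hspb9 and hspb15 had 0 counts in all 6 libraries. The partner of the co-chaperone Bag3, hspb8, had 3.03, 4.56 and 5.82 CPM in BMS libraries 2, 3 and 4, against 7.66, 5.91 and 7.66 CPM in vehicle libraries 2, 3 and 4. All 3 BMS libraries lay below all 3 vehicle libraries. The log2 fold change was -0.65 ± 0.33 (SE) without the block and -0.67 (interval -1.24 to -0.10) with it. The unadjusted p with the block was 0.0261 and the adjusted p from edgeR was 0.687, so hspb8 did not pass. By contrast, hspb1 (Hsp27) had 8.4, 2.71 and 3.84 CPM in BMS libraries, against 3.81, 2.62 and 3.17 CPM in vehicle libraries. BMS 2 carried most of that difference, and without it the log2 fold change was 0.06 against 0.62 ± 0.43 (SE) with all libraries.

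**Figure D2:**
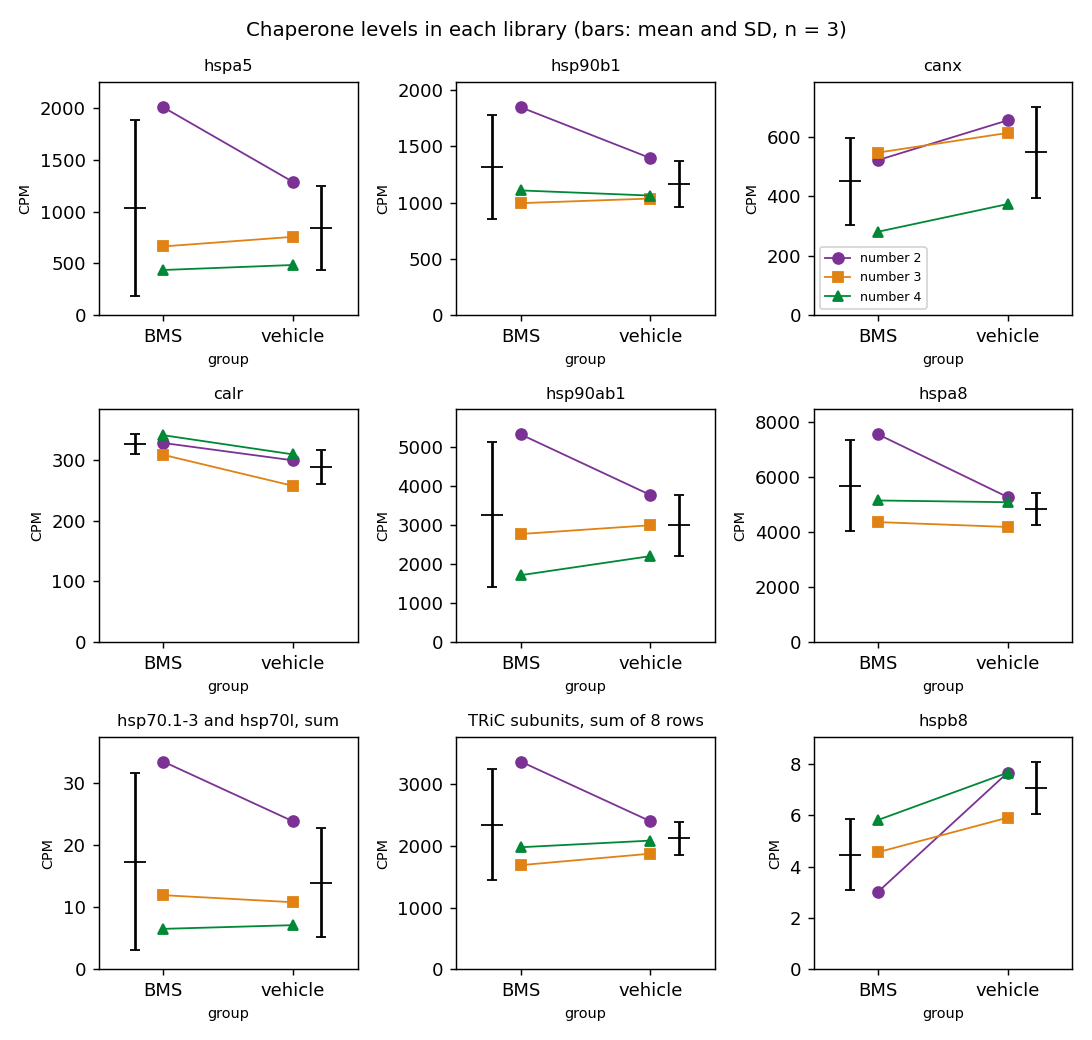
CPM scaled by TMM (y axis, from 0) in each library of the BMS and vehicle groups (x axis) for 7 chaperone genes and 2 sums of rows; lines join libraries of the same number, and bars give the mean and SD of 3 libraries. For hspa5 and the inducible hsp70 rows the number 2 libraries are the highest and the number 4 libraries the lowest in both groups, canx is lower and calr higher in BMS in 3 of 3 pairs, and hspb8 is the only panel in which the groups do not overlap.

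In the endoplasmic reticulum, hspa5 (BiP), the Hsp70 that holds nascent secreted chains and restrains the sensors of the unfolded protein response, had the widest range of the 56 chaperone genes with a mean of at least 10 CPM. It had 2011, 665 and 437 CPM in BMS libraries 2, 3 and 4, against 1290, 757 and 485 CPM in vehicle libraries 2, 3 and 4. Its level differed 4.61-fold between the highest and the lowest library, and in both groups number 2 was the highest and number 4 the lowest. Within pairs 2, 3 and 4 the log2 ratio was 0.64, -0.19 and -0.15. The log2 fold change with the block was 0.10 (interval -0.42 to 0.62), and -0.15 without both libraries of number 2. Without the block it was 0.30 ± 0.57 (SE), and in that fit leaving out 1 library gave values between -0.62 and 0.72, of which only that without BMS 2 was negative.

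Its partner hsp90b1 (Grp94) had 1848, 995 and 1108 CPM in BMS libraries, against 1396, 1036 and 1063 CPM in vehicle libraries of the same numbers. Here the numbers 3 and 4 lay together in both groups, and the highest library was 1.86-fold above the lowest, so hsp90b1 did not show the steps of hspa5. The disulfide isomerase pdia3, which works on glycoproteins held by the lectins, had 1430, 674 and 701 CPM in BMS libraries, against 999, 705 and 693 CPM in vehicle libraries. Its relative pdia4 had 560, 338 and 455 CPM in BMS libraries, against 403, 344 and 407 CPM in vehicle libraries. In both isomerases BMS 2 was the highest library and pair 3 had a log2 ratio close to 0 (-0.07 for pdia3 and -0.03 for pdia4).

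The lectin chaperones calnexin (canx, in the membrane) and calreticulin (calr, in the lumen) share a sugar-binding role, and their genes differed in direction. The canx level was 522, 547 and 281 CPM in BMS libraries 2, 3 and 4, against 655, 613 and 374 CPM in vehicle libraries 2, 3 and 4. Every pair was lower in BMS (log2 ratios -0.33, -0.16 and -0.41), while the groups overlapped because number 4 was low in both. The calr level was 328, 308 and 341 CPM in BMS libraries, against 299, 257 and 309 CPM in vehicle libraries. Every pair was higher in BMS (log2 ratios 0.13, 0.26 and 0.14). With the block, the intervals were -0.71 to 0.10 for canx and -0.20 to 0.56 for calr, and both include 0. The difference between the 2 genes was not tested.

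Collagen leaves the endoplasmic reticulum only when folded, and serpinh1b (Hsp47) is its dedicated chaperone. It had 1200, 710 and 1044 CPM in BMS libraries, against 961, 932 and 1059 CPM in vehicle libraries of numbers 2, 3 and 4, or 984 ± 250 CPM in BMS and 984 ± 66.7 CPM in vehicle (SD, n = 3 each). The means coincided, and with the block the log2 fold change was -0.03 (interval -0.51 to 0.45). In the same libraries col1a1a, a chain of type I collagen, had 21399, 11946 and 4671 CPM in BMS and 25053, 17055 and 7289 CPM in vehicle, with number 2 the highest and number 4 the lowest in both groups, an order that serpinh1b did not share. Of the 17 listed genes of type I collagen and its partners, 16 were tested and edgeR called 0, beside 0 of all 18541 rows. Their median log2 fold change was -0.01. Lower in BMS in 3 of 3 pairs were 5 of the 16 (31.25%), beside 17.5% of all rows, and 2 (12.5%) were higher, beside 14.1%. An unadjusted p under 0.05 in edgeR with the block was reached by 2 of the 16 (12.5%), both lower in BMS, beside 7.05% of all rows.

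Of the 15 tested J-domain genes of the endoplasmic reticulum, 6 were lower in BMS in 3 of 3 pairs, among them dnajc14, dnajc18 and dnajb9a, and 2 were higher (dnajb12a and dnajc16, singled out after their values were seen). Over all rows tested, 17.5% were lower and 14.1% higher in 3 of 3 pairs. The membrane protein gene dnajc14 had 4.09, 9.37 and 6.63 CPM in BMS libraries, against 5.81, 12.2 and 9.28 CPM in vehicle libraries. Its pair log2 ratios of -0.50, -0.38 and -0.48 were alike, but the groups overlapped since number 3 was high and number 2 low in both. The log2 fold change with the block was -0.46 (interval -0.89 to -0.02), with an unadjusted p of 0.0405 and an adjusted p of 0.687 from edgeR. For dnajb9a, a co-chaperone of BiP that the unfolded protein response raises, the levels were 1.74, 3.33 and 2.26 CPM in BMS libraries, against 3.17, 3.97 and 2.86 CPM in vehicle libraries. For dnajc18 the log2 fold change with the block was -0.29 (interval -0.72 to 0.15).

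The 12 mitochondrial chaperones had a median log2 fold change of 0.04, with values between -0.17 and 0.65. The matrix Hsp70 hspa9 (mortalin), which pulls imported chains inward, had 178, 191 and 244 CPM in BMS libraries 2, 3 and 4, against 195, 194 and 221 CPM in vehicle libraries 2, 3 and 4. Its log2 fold change with the block was -0.01 (interval -0.37 to 0.36). The chaperonin hspd1 (Hsp60) and its lid hspe1 (Hsp10) are encoded by adjacent genes. The hspd1 level was 225, 138 and 142 CPM in BMS libraries, against 191, 159 and 141 CPM in vehicle libraries, with a log2 fold change of 0.01 (interval -0.36 to 0.39) with the block. The hspe1 level was 116, 54.0 and 82.4 CPM in BMS libraries, against 68.4, 55.6 and 73.6 CPM in vehicle libraries, with a log2 fold change of 0.29 (interval -0.13 to 0.72). Both were highest in BMS 2, and hspe1 by more.

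Among J-domain proteins of mitochondria, the import motor part dnajc19 had 17.6, 5.75 and 10.3 CPM in BMS libraries, against 6.69, 6.37 and 8.25 CPM in vehicle libraries. BMS 2 stood apart, and the log2 fold change of 0.65 ± 0.40 (SE) was 0.20 without that library. With the block the log2 fold change was -0.17 for dnaja3a (interval -0.55 to 0.21), 0.27 for dnajc4 (interval -0.16 to 0.69) and 0.03 for dnajc11a (interval -0.31 to 0.38). Of the 12 genes that act elsewhere or are unclear, 9 were tested. Among them dnajc27, a small GTPase with a J domain, had 1.82, 8.13 and 9.98 CPM in BMS libraries, against 5.17, 8.48 and 9.80 CPM in vehicle libraries, lowest at number 2 in both groups.

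By compartment, the cytosolic and nuclear genes had a positive median that rested on BMS 2. The median log2 fold change was 0.12 over 40 tested genes, with 32 of 40 positive, beside 0.01 over all rows, of which 9553 were positive and 8988 negative. Without BMS 2 the median was -0.10 with 10 of 41 positive. With the replicate block it was 0.09, and with total-count scaling it was -0.02 with 19 of 40 positive, where the median of all rows moved to -0.10. Within pairs 2, 3 and 4 the medians were 0.45, -0.08 and -0.05, with 35, 13 and 16 of 40 genes higher. The genes of the endoplasmic reticulum had a median of 0.04 with 14 of 25 positive, and pair medians of 0.13, -0.05 and -0.15. Mitochondrial genes had a median of 0.04 with 8 of 12 positive, and pair medians of 0.21, -0.05 and -0.03. With total-count scaling, the pair 2 medians of these 2 classes were -0.16 and -0.08. The pair 2 median over all rows moved as well, from 0.00 to -0.27, and both classes stayed above it.

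Other values also set BMS 2 apart. Its TMM factor and share of ribosomal protein counts are given above, and the median ratio of superficial epidermis markers was largest in pair 2. All 12 of these markers were tested and none was at 0 in any library. They were not higher in pair 2 alone: 11, 9 and 9 of the 12 were higher in BMS in pairs 2, 3 and 4. In 3 of 3 pairs 6 of the 12 were higher (50%), beside 14.1% of all rows. Their summed level was 15398 to 28551 CPM in BMS libraries, with BMS 2 the highest, and 14069 to 18652 CPM in vehicle libraries, and their pair medians were 0.79, 0.22 and 0.08. Their part in the values of cytosolic chaperones was not tested.

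**Figure D3:**
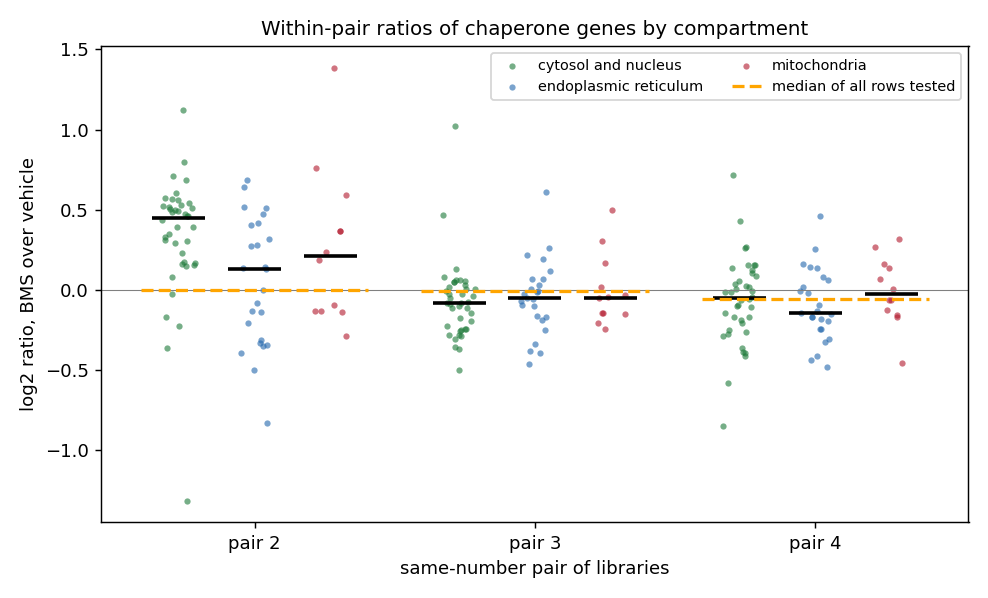
Log2 ratio of BMS over vehicle (y axis) within the same-number pairs 2, 3 and 4 (x axis) for the tested chaperone genes of the cytosol and nucleus (40), endoplasmic reticulum (25) and mitochondria (12). Each point is a gene, black bars are class medians and dashed lines the median of all 18541 rows; the cytosolic median is 0.45 in pair 2 and below 0 in pairs 3 and 4.

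The share of genes with the same sign in 3 of 3 pairs can be set beside that of all rows. Lower in BMS in 3 of 3 pairs were 15 of 86 genes (17.4%), beside 17.5% of all rows tested. Higher in 3 of 3 were 9 of 86 (10.5%), beside 14.1% of all rows. Of the 15 lower genes, 8 belong to the 25 of the endoplasmic reticulum and 3 to the 40 of the cytosol and nucleus. By family, 11 of the 15 are among the 48 tested J-domain genes (22.9% of these 48). The 9 higher genes include hspa8, hsp70.2, hsp90aa1.2, hspb1 and calr. BMS libraries all lay below vehicle libraries for 3 genes (hspb8, dnajc3b and dnajc5ga), beside 1.76% of all rows, and all above for 0, beside 2.16%. Of these, dnajc3b and dnajc5ga were singled out after their values were seen. The BiP co-chaperone gene dnajc3b had 90.4, 87.8 and 86.2 CPM in BMS libraries, against 95.8, 93.5 and 95.4 CPM in vehicle libraries, a narrow gap. An unadjusted p under 0.05 with the block was reached by 2 of 86 (2.3%), hspb8 and dnajc14, beside 7.05% of all rows.

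Most of the spread of chaperone levels went with the replicate number. It accounted for a median of 74.5% of the variance of log2 CPM over the 86 genes, and treatment for 4.91%, beside 71.1% and 8.25% over all rows tested. For 78 of the 86 genes (90.7%) the share of the number was larger than that of treatment, beside 90.3% of all rows, where the number has 2 degrees of freedom and treatment 1. Treatment had the larger share for 8: dnajb1a, dnajb1b, hspb8, calr, dnajc16, dnajc3b, dnajc4 and dnajc5ga. Within the Hsp70 family of 13 tested genes the median share of the number was 90.7%, and for hspa5 it was 93.5%.

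A common order stood out, with the number 2 library highest and the number 4 library lowest in both groups. It held for 17 of the 86 genes (19.8%), beside 11.9% of all rows, and the opposite order held for 3 genes (3.49%), beside 7.31% of all rows. Of the 17, 12 are among the 40 cytosolic or nuclear genes, including the 4 inducible hsp70 rows, hsp90ab1, hsp90aa1.2, tcp1 and cct2. Another 4 are among the 25 of the endoplasmic reticulum, including hspa5, and 1 is among the 12 of mitochondria, dnaja3a. Number 2 was more than 2-fold above number 4 in both groups for 5 genes (5.81%), beside 3.65% of all rows. These 5 are hspa5 and the 4 inducible hsp70 rows. For hspa5 the log2 ratio of number 2 over number 4 was 2.20 in BMS and 1.41 in vehicle, and for hsp70l it was 2.48 in BMS and 1.87 in vehicle. The labels do not say what the number stands for.

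**Figure D4:**
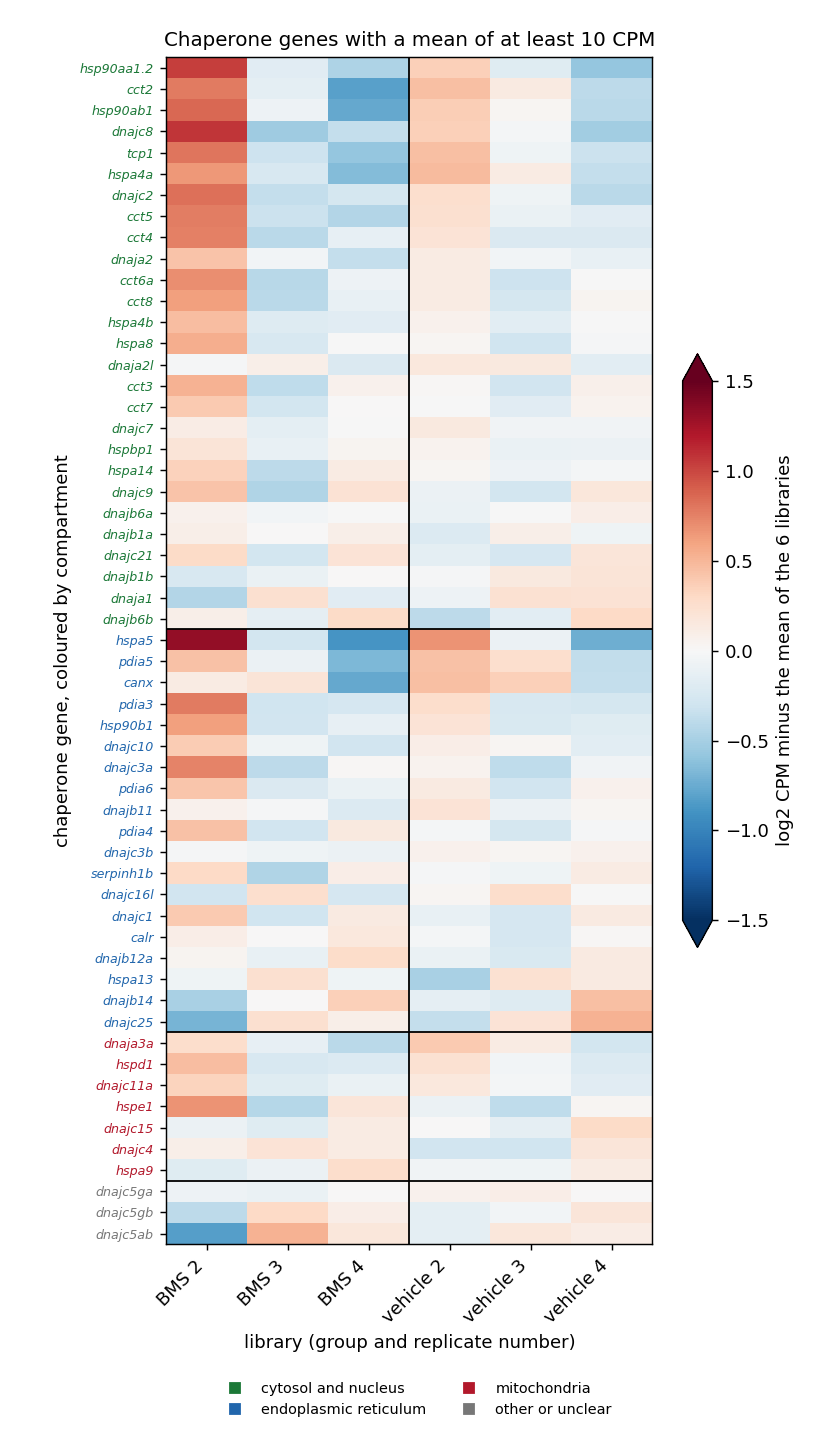
Log2 CPM minus the mean of the 6 libraries (colour) for the 56 chaperone genes with a mean of at least 10 CPM (rows, grouped and coloured by compartment) in BMS 2 to 4 and vehicle 2 to 4 (columns). BMS 2 is high for most cytosolic genes, and hspa5 is high in number 2 and low in number 4 in both groups.

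The regulators of these genes did not pass either, but edgeR with or without the block called 0 of all 18541 rows. Of 36 listed heat shock regulators and co-chaperones, 32 were tested, 0 were called by edgeR with or without the block, and the median log2 fold change was 0.10 with 21 positive and 11 negative. The gene of heat shock factor 1, hsf1, had 5.37, 20.0 and 8.81 CPM in BMS libraries 2, 3 and 4, against 13, 18.9 and 12.7 CPM in vehicle libraries 2, 3 and 4. It was lowest in BMS 2, the library in which the inducible hsp70 rows were highest. Any relation between these levels was not tested. For hsf2 the levels were 20.7, 16.7 and 21.8 CPM in BMS libraries, against 21.3, 21.5 and 22.3 CPM in vehicle libraries.

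Of 48 listed genes of the endoplasmic reticulum stress response, 43 were tested and edgeR called 0, beside 0 of all 18541 rows. Their median log2 fold change was 0.04, with 25 positive. The transcription factor gene xbp1 had 583, 322 and 318 CPM in BMS libraries, against 397, 323 and 356 CPM in vehicle libraries, and gene counts do not show the splicing that activates it. For atf4a the levels were 886, 397 and 405 CPM in BMS libraries, against 467, 374 and 408 CPM in vehicle libraries. Outside BMS 2 both genes varied little, unlike hspa5. The log2 fold change with the block was 0.29 for atf4b (interval -0.12 to 0.69), -0.17 for atf6 (interval -0.53 to 0.19) and 0.11 for ddit3 (interval -0.27 to 0.48), the gene of the death-linked factor Chop. Of 24 listed immediate early genes, 23 were tested and edgeR called 0, beside 0 of all 18541 rows. The median log2 fold change of these 23 was 0.12. Their pair medians were -0.15, -0.41 and 0.85 in pairs 2, 3 and 4. An unadjusted p under 0.05 in edgeR with the block was reached by 3 of the 23, all 3 higher in BMS. Over all rows it was reached by 1307 of 18541 (7.05%), of which 573 were higher. For other lists the count was 4 of 4 Hedgehog targets (all lower in BMS), 3 of 16 fin markers and 3 of 12 superficial epidermis markers. It was 2 of 32 heat shock regulators and co-chaperones and 1 of 43 stress response genes. Among the tested muscle, blood and immune markers it was 0.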

How the data were processed

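RNA of 6 pools of fin regenerates was sequenced from Kapa mRNA libraries. The authors deposited raw read counts per gene; per the submitters' processing notes, the tools include edgeR 4.3.2, HTSeq 0.6.1, Bowtie2 2.33 and TopHat2 2.1.1, on the build GRCz11. Neither annotation nor strand setting is stated (not given in the sources used here). A deposited table of normalized values was not used.

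The counts were tested with edgeR 4.0.16 in R 4.3.3 (limma 3.58.1): TMM scaling, filterByExpr by group, robust quasi-likelihood fit on group alone, and Benjamini-Hochberg adjustment over all 18541 rows tested at 0.05. Per-library CPM use TMM-scaled library sizes, and log2 CPM a prior count of 2. The 12 untested chaperone rows had at most 13 counts in any library. Because levels are not divided by gene length, they are compared between libraries and not between genes.

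The replicate number was added as a block in an alternative fit. Deviations from the group means correlated at 0.58, 0.55 and 0.62 between libraries of the same number and at -0.50 to -0.16 otherwise. Because deviations cancel out within a group, positive values for the same number make the others negative on balance. Each number was treated as a pair because of the positive values, and the labels state no pairing. DESeq2 1.42.0 with and without the block, limma-voom, other scalings, other filters and leaving out libraries were tried. The fits were also run on simulated counts with known changes. There every row had the same noise level and both groups shared the same number effects. That run therefore does not measure how the fits perform on these libraries. Variance shares are sums of squares of log2 CPM for number, treatment and the rest.

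The symbol rule uses no values, but the topic, its genes and the related lists were chosen with earlier results of these data known. Genes named with values were the 6 most counted per compartment, the 8 of smallest p with and without the block, the 8 most variable above 5 CPM, and a set of well-known chaperones. Compartments follow symbol patterns; dnajc30b matched 2 patterns and was placed in mitochondria. Symbols and neighbours come from the RefSeq gene table of assembly GRCz12tu, in which all 98 names were found; it differs from the build of the counts, so no coordinates or sequences are given. Replicate libraries differed by more than sampling noise.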

Additional observations from a re-analysis of the deposited data

How the results depend on the processing

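No chaperone gene was called under any of the 20 alternative settings. Over all rows, 0 were called by the edgeR fit on group alone and 0 by edgeR with the replicate block. DESeq2 called 1 row, and 72 with the replicate block. With the block and without both libraries of number 2, 3 or 4, edgeR called 9, 392 and 12 rows, and the cause was not tested. With 1 library left out, the median log2 fold change of endoplasmic reticulum genes lay between -0.13 (without BMS replicate 2) and 0.0513 (without BMS replicate 4). Total-count scaling with the replicate block, a combination added after seeing the data, gave -0.10 for these genes and -0.11 for mitochondrial genes. The median over all rows was -0.13 there, against -0.02 with TMM and the block. In both of these fits the 2 class medians were 0.03 above that of all rows. The replicate block alone gave medians of 0.09, 0.01 and 0.01 for the cytosolic, endoplasmic reticulum and mitochondrial genes and changed no call among chaperones. Of 37 named genes tested, 15 kept their sign in every setting and 22 took another sign in at least 1. Of 733 single-gene values, 680 moved by less than 1 SD of the pair ratios and 53 by more. With 3 pools per group, the median half-width of the 95% interval was 0.43 log2 units over the 86 genes with the block. Genes near 3 reads, such as hsp90aa1.1, give no fold change.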

Other observations

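Beyond the chaperones themselves, fkbp5, a prolyl isomerase that binds Hsp90 in steroid receptor complexes, had the widest range among the listed co-chaperones and was singled out after its values were seen. It had 734, 98.0 and 209 CPM in BMS libraries 2, 3 and 4, against 411, 26.0 and 12.3 CPM in vehicle libraries 2, 3 and 4, higher in BMS in 3 of 3 pairs (log2 ratios 0.84, 1.91 and 4.08). The groups overlapped, and the log2 fold change with the replicate block was 2.22 (95% interval 0.51 to 3.94, edgeR adjusted p = 0.674). It did not pass. Without the block the log2 fold change was 1.21 ± 1.14 (SE), and leaving out 1 library in that fit moved it between 0.05 and 4.16. Its partner hsp90ab1 had a log2 fold change of 0.01 with the block in the same libraries.

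The calreticulin family has further rows outside the choice by symbol. The row calr3a had 1530, 761 and 1021 CPM in BMS libraries 2, 3 and 4, against 940, 700 and 929 CPM in vehicle libraries, higher in 3 of 3 pairs as calr was. The row calr3b had 289, 468 and 483 CPM in BMS libraries, against 366, 450 and 537 CPM in vehicle libraries, with pair ratios of both signs. Neither was called.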
